A study of Ovis aries with 9 samples.

Results

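Hepatocytes of female sheep at gestation days 90 to 100 were compared with hepatocytes at gestation days 70 to 80. All cells named for either stage in the deposited count table were taken. They were 396 cells at days 90 to 100 (labelled G90_100) and 253 cells at days 70 to 80 (labelled G70_80), 649 of the 3404 cells in the series. The cells came from livers of slaughtered female sheep (Ovis aries), were freed with collagenase and picked by hand. Each got its own library by Smart-seq3xpress, a plate method that reads full-length transcripts from single cells. The labels name no treatment, breed or age in either group. The series follows the hepatocyte from virgin ewes through gestation into lactation, and this step lies in mid-gestation. Each stage is 1 sample, and the labels name no separate animals, so there are no replicates and no test was made. A difference between the stages and a difference between the animals sampled cannot be told apart.

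The hepatocyte makes most plasma proteins, clears drugs and hormones, and switches between making and burning lipid and glucose. In mid-gestation the fetus and placenta grow while the ewe's liver takes up a larger metabolic load, and in mice and rats the maternal liver enlarges by cell growth and by renewed division. Hepatocytes of adults are mostly quiescent, and genes of the cell cycle, of xenobiotic metabolism (CYP1A1, induced through the aryl hydrocarbon receptor) and of the interferon and acute phase responses are among the most readily switched in them.

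Levels are given as summed CPM, the reads of a gene over all cells of a stage after scaling every stage to the same total, adjusted by trimmed mean of M-values (TMM). A gene counted as tested, which here means compared without a statistical test, when it reached 10 CPM in either stage, and it was called higher or lower when the stages differed at least 2-fold. Days 90 to 100 held 213670593 reads, with a median of 413452 per cell (53190 to 3842012), and days 70 to 80 held 121865640 reads, with a median of 405562 per cell (55420 to 1742788). After every cell had been thinned to 155164 reads, the median cell had reads in 5509 genes at days 90 to 100 (355 cells, 41 shallower cells left out) and in 6396 genes at days 70 to 80 (213 cells, 40 left out). Unthinned, the medians were 5979 genes at days 90 to 100 and 6748 genes at days 70 to 80. All 3404 cell names were distinct, and 0 cells of the pair had identical counts.

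Both stages had the profile of hepatocytes. All 11 hepatocyte markers in the table reached 10 CPM in at least 1 stage, and albumin (ALB) stood at 113350 CPM at days 90 to 100 and 91760 CPM at days 70 to 80. Markers of other cells were scarce. At days 90 to 100, the 9 bile duct markers in the table summed to 5.16 CPM, the 10 endothelial markers to 11 CPM, the 12 stellate and fibroblast markers to 25.5 CPM, the 10 macrophage markers to 46.7 CPM, the 13 lymphocyte markers to 37.0 CPM, the 5 neutrophil markers to 1.58 CPM and the 7 red cell markers to 1.71 CPM. At days 70 to 80 the same lists, in that order, summed to 4.93, 7.43, 13.9, 21.5, 75.8, 1.18 and 25.3 CPM. Cells with more than 1000 CPM of these markers numbered 6 of 396 at days 90 to 100 (1.52%) and 9 of 253 at days 70 to 80 (3.56%). Leaving them out gave 177 genes called higher and 179 called lower, against 182 and 189 with all cells.

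Cells of 1 stage were not uniform. The cells carry running numbers, whose meaning the labels do not give, and levels of several genes stepped at particular numbers. Cells were therefore also summed in runs of 48 consecutive numbers, 8 runs at days 90 to 100 and 5 at days 70 to 80, a division chosen after the data were seen. Within days 90 to 100, the acute phase gene ORM1 had a cell median of 28.7 CPM in cells 1 to 96, 1.84 CPM in cells 97 to 144 and 368 CPM in cells 145 to 396, and the iron hormone HAMP had 1080, 2.59 and 101 CPM in the same ranges. Within days 70 to 80, CYP1A1 had a cell median of 233 CPM in cells 1 to 96 and of 6440 CPM in cells 97 to 253. The runs differed in depth and gene number as well, from 4410 to 6424 genes in the median thinned cell at days 90 to 100 and from 5556.5 to 6689 at days 70 to 80. Runs are given beside the genes described below, and their part in the results was not tested otherwise.

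Of 6524 genes tested, 182 were called higher at days 90 to 100 (2.79%) and 189 were called lower (2.9%). The median log2 fold change over all tested genes was 0.05. Scaling by read totals alone, without TMM, moved every log2 fold change by -0.145 and gave 123 genes higher and 254 lower. Values above 0 but under 0.145 change sign with this scaling, and values below 0 keep theirs. In 187 genes every run at days 90 to 100 lay above every run at days 70 to 80 (2.87%), and in 126 genes every run lay below (1.93%). Genes that met both conditions numbered 35 higher (19.2% of the called) and 61 lower (32.3%). In these sums, fewer cells with a transcript and less of it in each cell cannot be told apart, except where shares of cells are given.

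**Figure D1:**
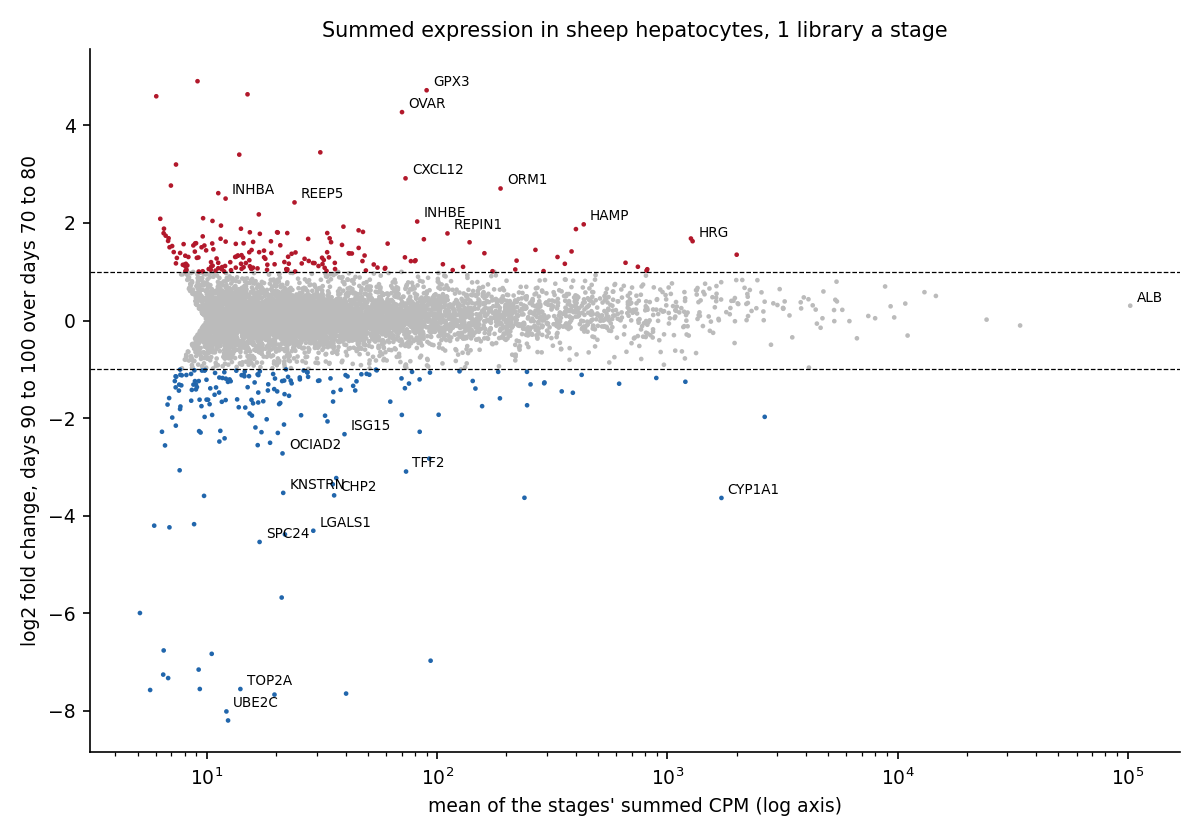
Summed expression of the 6524 tested genes, with the mean of both stages in CPM on a log axis and the log2 fold change of days 90 to 100 over days 70 to 80 on the vertical axis. Red points were called higher, blue points lower, and dashed lines mark 2-fold. Most abundant genes lie within 2-fold (ALB at 0.30), CYP1A1 at -3.63 stands apart among abundant genes, and among the lowest points are UBE2C (-8.01), TOP2A and the red cell globin HBB (both -7.55).

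Genes of cell division were lower at days 90 to 100. Of the 30 cell cycle genes listed, 13 were tested and 10 of these were called lower, 0 higher, where 2.9% of all tested genes were called lower. Of the 10, 8 reached 10 CPM only at days 70 to 80, and only CCND1 and PCNA reached it in both stages, so this count is no support on its own. Over all 30 members the summed level was 111 CPM at days 90 to 100 and 395 CPM at days 70 to 80, and 26 members were below their level of days 70 to 80. UBE2C, which hands ubiquitin to mitotic proteins for destruction, stood at 0.094 CPM at days 90 to 100 and 24.2 CPM at days 70 to 80 (log2 fold change -8.01), with runs of 0 to 0.258 CPM at days 90 to 100 against 2.79 to 61.7 CPM at days 70 to 80. TOP2A, the topoisomerase that untangles replicated chromosomes, stood at 0.148 CPM at days 90 to 100 (95% Poisson interval 0.1 to 0.212) and 27.8 CPM at days 70 to 80 (26.9 to 28.7), a log2 fold change of -7.55. Its runs spanned 0 to 1.01 CPM at days 90 to 100 and 4.55 to 86.0 CPM at days 70 to 80, also without overlap. BIRC5, the survivin of the chromosomal passenger complex, stood at 6.26 CPM at days 90 to 100 and 64.1 CPM at days 70 to 80 (-3.36), and its runs did not overlap, at 1.96 to 15.6 CPM at days 90 to 100 against 19.8 to 160 CPM at days 70 to 80, although 29.8% of its reads at days 90 to 100 were in 1 cell. CCND1, the cyclin D that opens the cycle, was less far apart, at 23.8 CPM at days 90 to 100 and 64.3 CPM at days 70 to 80 (-1.43), with overlapping runs. The 17 other listed members were under 10 CPM in both stages. CDKN1A, an inhibitor of the cycle chosen after its values were seen, had a log2 fold change of 0.81 and overlapping runs and was not called.

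Further genes of cell division stood outside that list and are named here because their falls were among the largest. SPC24, of the NDC80 complex at the kinetochore, stood at 1.40 CPM at days 90 to 100 and 32.4 CPM at days 70 to 80 (log2 fold change -4.54). CKS2, a partner of cyclin-dependent kinases, stood at 2.0 CPM at days 90 to 100 and 41.6 CPM at days 70 to 80 (-4.38). Runs spanned 0.625 to 5.74 CPM (median 2.43) at days 90 to 100 and 11.6 to 122 CPM (median 20.2) at days 70 to 80. PTTG1, the securin, stood at 5.86 CPM at days 90 to 100 and 28.6 CPM at days 70 to 80 (-2.29). The runs of these 3 genes did not overlap. KNSTRN, a spindle protein (3.41 CPM at days 90 to 100, 39.4 CPM at days 70 to 80, log2 fold change -3.53), had overlapping runs. So did SMC4, a condensin subunit (4.84 CPM at days 90 to 100, 28.4 CPM at days 70 to 80, log2 fold change -2.55).

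The cell cycle reads at days 70 to 80 came from a minority of cells. A panel of 17 genes of S, G2 and M phase, chosen after the values were seen, was counted in thinned cells. At days 90 to 100, 0 of 355 cells had reads of 5 or more panel genes, which allows a share of up to 0.845% (3 counts of the 355, and 1.03% as the upper bound of the exact binomial 95% interval), and the most in any cell was 3. At days 70 to 80, 28 of 213 cells did (13.1%, exact binomial 95% interval 8.92 to 18.4%), and the most in any cell was 17. Unthinned, the cells numbered 3 of 396 (0.758%) at days 90 to 100 and 40 of 253 (15.8%) at days 70 to 80. Such cells were present in each of the 5 runs of days 70 to 80, from 4.55% to 20.5%. The first 2 runs held 2 of 44 and 3 of 43 cells. Each run of days 90 to 100 had 0 such cells. Within days 70 to 80 the levels of these genes also stepped after cell 96. From cells 1 to 96 to cells 97 to 253, TOP2A went from 5.6 to 52.5 CPM and UBE2C from 3.51 to 47.2 CPM. CKS2 went from 13.1 to 73.3 CPM between the same ranges. CKS2, which the panel does not hold, averaged 2.80 CPM over cells at days 90 to 100. At days 70 to 80 it averaged 255 CPM in the 28 cells and 4.12 CPM in the remaining 185. The 28 cells had a mean of 78200 CPM of ALB and the remaining cells one of 93100 CPM. CCND1 averaged 30.5 CPM over cells at days 90 to 100, and at days 70 to 80 it averaged 72.3 CPM in the 28 cells and 70.8 CPM in the remaining cells. Of all thinned cells, 63.7% at days 90 to 100 and 24.9% at days 70 to 80 had reads of 0 panel genes.

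**Figure D2:**
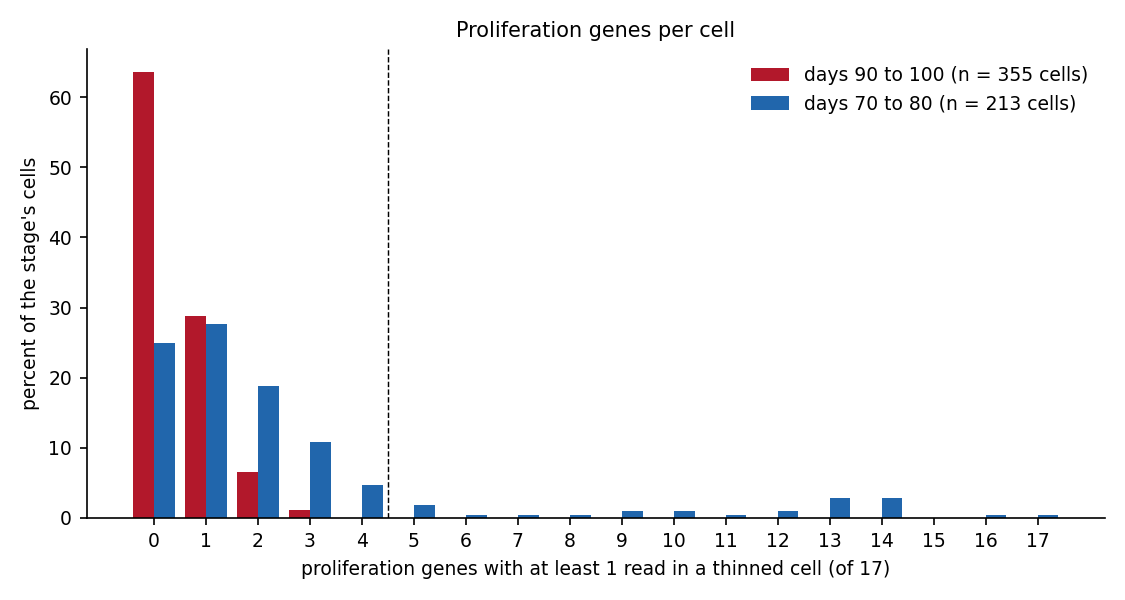
Number of proliferation genes (of 17) with at least 1 read in a cell thinned to 155164 reads, as the percent of a stage's cells, with days 90 to 100 in red (355 cells) and days 70 to 80 in blue (213 cells). The dashed line marks 5 genes, beyond which lie 0 cells of days 90 to 100 and 28 cells of days 70 to 80.

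In the other gestation stages, counted the same way, cells with 5 or more panel genes were 1 of 265 at days 40 to 50, 0 of 252 at days 50 to 70, 4 of 340 at days 100 to 120 and 6 of 437 at days 140 to 150. Days 70 to 80 thus had the highest share among the 6 stages of gestation. The share was not computed in virgin ewes, where TOP2A stood at 20.7 CPM and UBE2C at 24.6 CPM, so high levels of these genes were not confined to days 70 to 80.

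CYP1A1, the cytochrome P450 that oxidises polycyclic aromatic compounds, was lower at days 90 to 100. It stood at 256 CPM at days 90 to 100 and 3179 CPM at days 70 to 80 (log2 fold change -3.63). Its runs spanned 87.2 to 399 CPM (median 325) at days 90 to 100 and 250 to 6422 CPM (median 5978) at days 70 to 80, so they overlapped. The first 2 runs of days 70 to 80 were at 250 and 894 CPM and the other 3 between 5980 and 6420 CPM. All other stages of gestation were between 122 and 452 CPM. The 18 tested genes of drug metabolism had a median log2 fold change of 0.01. Of them 2 were called lower and 0 higher, where 2.9% of all tested genes were called lower. The other was UGT2B7, a glucuronosyltransferase of steroids and drugs, at 549 CPM at days 90 to 100 and 1241 CPM at days 70 to 80 (-1.18). The runs of this gene covered 444 to 843 CPM at days 90 to 100 against 1161 to 1315 CPM at days 70 to 80. CYP2E1, an abundant cytochrome P450 of the same list, stood at 10272 CPM at days 90 to 100 and 8387 CPM at days 70 to 80 (0.29). UGT2B7 belongs to a family of similar genes, as do some others named here, and whether they share reads was not tested. ABCB1, an efflux pump for drugs, was lower as well, at 15.6 CPM at days 90 to 100 and 35 CPM at days 70 to 80 (-1.17), and every one of its runs at days 90 to 100 lay below those at days 70 to 80.

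Other genes called lower differed between the same cell ranges within days 70 to 80. MYC, a growth transcription factor, stood at 42.7 CPM at days 90 to 100 and 97.2 CPM at days 70 to 80 (log2 fold change -1.18). Within days 70 to 80 its cell median was 7.63 CPM in cells 1 to 96 and 158 CPM in cells 97 to 253. The immediate early genes FOSL2 (-1.23) and BTG2 (-1.07) were called lower in the same list. The cell median at days 70 to 80 was 7.56 CPM in cells 1 to 96 and 78.0 CPM in cells 97 to 253 for FOSL2, and 41.1 CPM and 191 CPM for BTG2. KLF10, a factor induced by TGF-beta, was called higher, at 35.7 CPM at days 90 to 100 and 15.9 CPM at days 70 to 80 (1.17), with runs that did not overlap. PPARGC1A, the coactivator that raises gluconeogenesis and mitochondrial genes, stood at 40.1 CPM at days 90 to 100 and 105 CPM at days 70 to 80 (-1.39). At days 70 to 80 its cell median was 37.0 CPM in cells 1 to 96 and 140 CPM in cells 97 to 253. SOCS2, a feedback inhibitor of growth hormone signalling, stood at 50.7 CPM at days 90 to 100 and 117 CPM at days 70 to 80 (-1.21). Its cell medians at days 70 to 80 were 59.3 and 161 CPM in those ranges. For these 5 lower genes the runs of the stages overlapped, and within days 70 to 80 the level was higher in cells 97 to 253 than in cells 1 to 96.

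Of the lower genes outside division, LGALS1, TFF2, CHP2 and OCIAD2 were lower in every run of days 90 to 100 than in any run of days 70 to 80. LGALS1, the secreted lectin galectin-1, stood at 2.79 CPM at days 90 to 100 and 55.1 CPM at days 70 to 80 (log2 fold change -4.31). Reads were found in 10.1% of thinned cells at days 90 to 100 (95% interval 7.20 to 13.8%) and 56.3% at days 70 to 80 (49.4 to 63.1%). TFF2, a trefoil peptide known from the stomach, stood at 15.4 CPM at days 90 to 100 and 131 CPM at days 70 to 80 (-3.09). Within days 70 to 80 its cell median was 36.9 CPM in cells 1 to 96 and 198 CPM in cells 97 to 253. Reads were found in 23.4% of thinned cells at days 90 to 100 and 93.9% at days 70 to 80. CHP2, a calcineurin-like calcium-binding protein, stood at 5.50 CPM at days 90 to 100 and 65.8 CPM at days 70 to 80 (-3.58). Reads were found in 10.7% of cells at days 90 to 100 and 70.0% at days 70 to 80. OCIAD2 stood at 5.6 CPM at days 90 to 100 and 37.0 CPM at days 70 to 80 (-2.72). Within days 90 to 100 it was at 16.8 CPM in cells 1 to 96 and 0.864 CPM in cells 145 to 396. Reads were found in 17.7% of cells at days 90 to 100 and 85.9% at days 70 to 80. All these shares compare stages whose median thinned cell differed in the number of genes detected, given above. ARG2, the mitochondrial arginase (5.63 CPM at days 90 to 100, 31.9 CPM at days 70 to 80, log2 fold change -2.50), and ZBED3 (6.85 CPM at days 90 to 100, 33.8 CPM at days 70 to 80, log2 fold change -2.30) were also lower, with overlapping runs. ZBED3 had a cell median of 0 CPM in cells 1 to 96 of days 70 to 80 and 50.7 CPM in cells 97 to 253.

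Interferon-stimulated genes were lower at days 90 to 100. Of 11 tested members 6 were called lower and 0 higher, with a median log2 fold change of -1.15. Over all tested genes, 2.9% were called lower and 2.79% higher. Of the 6, USP18 reached 10 CPM only at days 70 to 80. ISG15, a ubiquitin-like modifier, stood at 13.1 CPM at days 90 to 100 and 66.0 CPM at days 70 to 80 (-2.33). Its runs were at 1.89 to 27.9 CPM at days 90 to 100 against 35.1 to 84.4 CPM at days 70 to 80. MX1, an antiviral GTPase, stood at 12.9 CPM at days 90 to 100 and 53.9 CPM at days 70 to 80 (-2.07). IFI6, a mitochondrial antiapoptotic protein, was at 205 CPM at days 90 to 100 and 572 CPM at days 70 to 80 (-1.48), and IFI44 was at 12.6 CPM at days 90 to 100 and 29.8 CPM at days 70 to 80 (-1.24). These 3 had overlapping runs. USP18, which removes ISG15 from proteins (-1.71), and EIF2AK2, the kinase PKR (-1.15), both chosen after their values were seen, had runs that did not overlap. HERC6, named by its fold outside the list, stood at 3.77 CPM at days 90 to 100 and 20.1 CPM at days 70 to 80 (-2.41), with overlapping runs. Of its reads at days 90 to 100, 49.1% were in 1 cell. Within days 90 to 100, IFI6 had a cell median of 109 CPM in cells 1 to 96, 106 CPM in cells 97 to 144 and 10.5 CPM in cells 145 to 396.

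**Figure D3:**
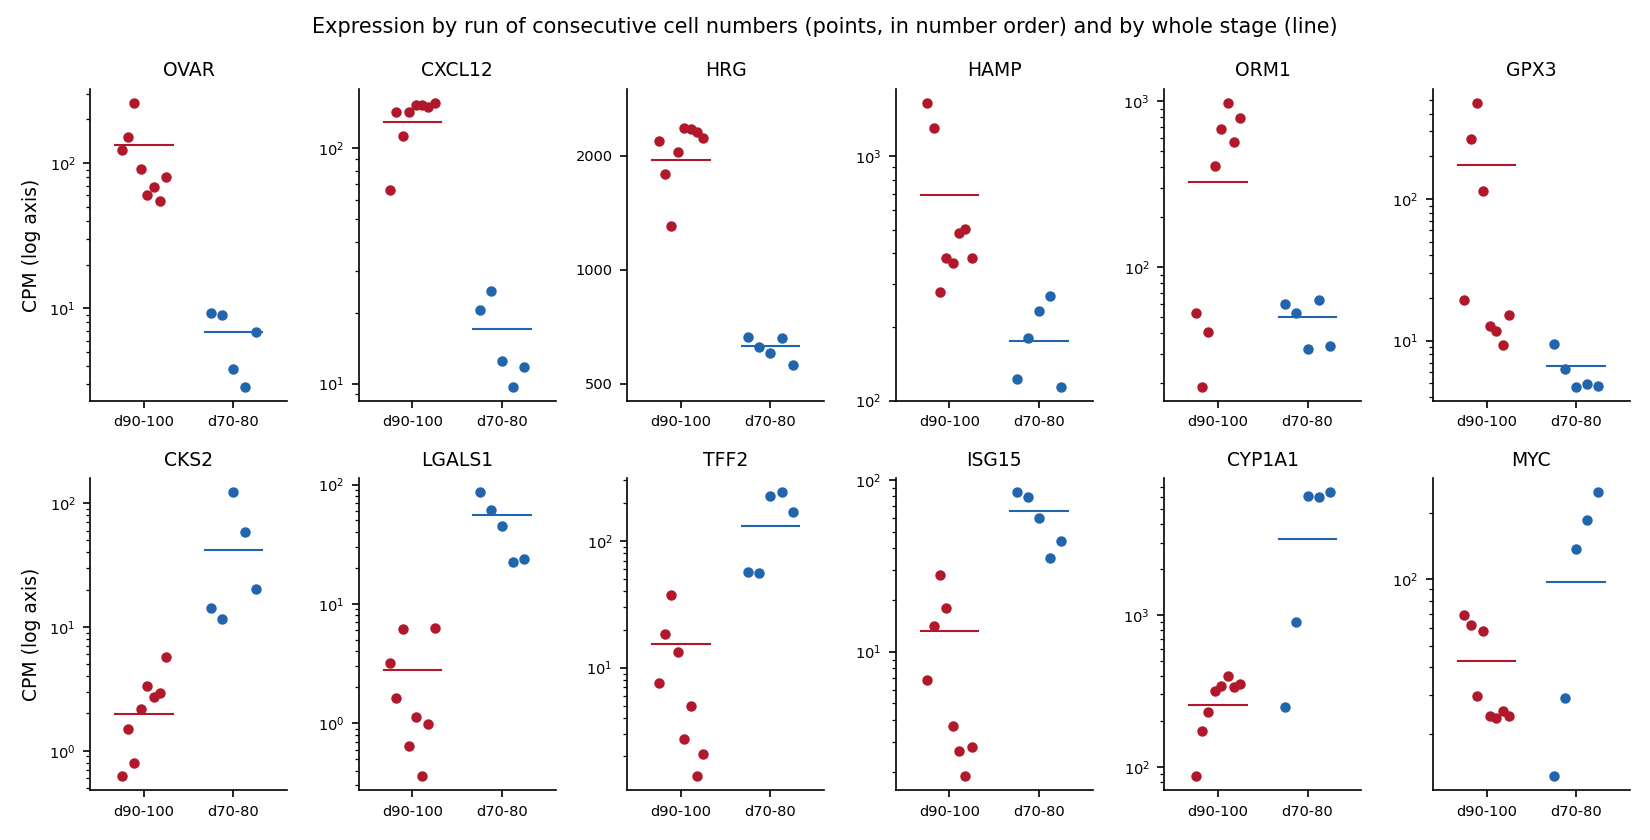
Expression of 12 genes in runs of 48 consecutive cell numbers, in CPM on log axes, with 8 runs of days 90 to 100 in red (left) and 5 runs of days 70 to 80 in blue (right), in number order, and horizontal lines for the whole stage. OVAR, CXCL12, HRG, HAMP, CKS2, LGALS1, TFF2 and ISG15 have runs that do not overlap, while those of ORM1, GPX3, CYP1A1 and MYC do, and CYP1A1 runs from 250 to 6422 CPM within days 70 to 80.

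Among the genes called higher, OVAR, CXCL12 and HRG were high in every run of days 90 to 100. OVAR, which RefSeq lists as protein-coding under that symbol, stood at 134 CPM at days 90 to 100 and 6.92 CPM at days 70 to 80 (log2 fold change 4.27). Runs spanned 54.6 to 258 CPM (median 85.5) at days 90 to 100 against 2.89 to 9.30 CPM (median 6.84) at days 70 to 80. It had reads in 96.1% of thinned cells at days 90 to 100 (93.5 to 97.8%) and 48.4% at days 70 to 80 (41.5 to 55.3%). CXCL12, the chemokine that holds CXCR4-bearing cells in tissue, stood at 129 CPM at days 90 to 100 and 17.1 CPM at days 70 to 80 (2.91). The runs of this gene covered 66.4 to 155 CPM (median 146) at days 90 to 100 against 9.69 to 24.6 CPM (median 12.5) at days 70 to 80. Reads were in 94.9% of cells at days 90 to 100 and 53.1% at days 70 to 80. HRG, the plasma histidine-rich glycoprotein, stood at 1945 CPM at days 90 to 100 and 630 CPM at days 70 to 80 (1.63). Its runs were at 1298 to 2363 CPM at days 90 to 100 against 560 to 665 CPM at days 70 to 80. AFMID, a formamidase of tryptophan breakdown, stood at 74.1 CPM at days 90 to 100 and 21.0 CPM at days 70 to 80 (1.82). Runs spanned 67.5 to 85.8 CPM at days 90 to 100 against 17.3 to 24 CPM at days 70 to 80. REEP5, which shapes the endoplasmic reticulum (40.4 CPM at days 90 to 100, 7.55 CPM at days 70 to 80, log2 fold change 2.42), was higher in every run. So were FHIT, a dinucleoside triphosphate hydrolase (23.9 CPM at days 90 to 100, 6.81 CPM at days 70 to 80, log2 fold change 1.81), and the zinc finger gene REPIN1 (172 CPM at days 90 to 100, 49.8 CPM at days 70 to 80, log2 fold change 1.79). The lowest FHIT run was 13.2 CPM at days 90 to 100, and the highest was 11.9 CPM at days 70 to 80. In cells 97 to 144 of days 90 to 100, FHIT had reads in 22.9% of cells. The shares at days 70 to 80 were 33.3% in cells 1 to 96 and 46.5% in cells 97 to 253. In cells 1 to 96, REEP5 had a cell median of 2.29 CPM at days 90 to 100 and 2.31 CPM at days 70 to 80. Reads were in 57.3% and 58.3% of those cells. Its cell median was 39.6 CPM in cells 145 to 396 of days 90 to 100 and 0 CPM in cells 97 to 253 of days 70 to 80. KCNJ2, an inward rectifier potassium channel (62.0 CPM at days 90 to 100, 16.3 CPM at days 70 to 80, log2 fold change 1.92), was apart by a narrow gap, with its lowest run at 24 CPM at days 90 to 100 and its highest at 23.5 CPM at days 70 to 80. The median cell among cells 1 to 96 had 0 CPM of KCNJ2 at days 90 to 100, with reads in 36.5% of cells, and 7.7 CPM at days 70 to 80, with reads in 71.9%.

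Of 16 tested acute phase genes, 2 were called higher (HAMP and ORM1) and 0 lower, where 2.79% of all tested genes were called higher. HAMP, the peptide hepcidin that blocks iron export, stood at 690 CPM at days 90 to 100 and 176 CPM at days 70 to 80 (log2 fold change 1.97). The runs of this gene covered 278 to 1639 CPM (median 434) at days 90 to 100. At days 70 to 80 they covered 114 to 267 CPM (median 180). Its share of thinned cells with reads was alike at 78.9% at days 90 to 100 and 80.8% at days 70 to 80. The run of 278 CPM was cells 97 to 144, whose median cell had 2.59 CPM. Cell medians were 1080 CPM in cells 1 to 96 and 101 CPM in cells 145 to 396 of days 90 to 100. At days 70 to 80 they were 25.3 CPM in cells 1 to 96 and 11.7 CPM in cells 97 to 253. Before thinning, reads were in 62.5% of cells 97 to 144 of days 90 to 100. In the ranges of days 70 to 80 they were in 97.9% and 75.8%. ORM1, an acute phase glycoprotein that binds drugs, stood at 327 CPM at days 90 to 100 and 50.1 CPM at days 70 to 80 (2.71). Its runs were at 19.0 to 974 CPM (median 488) at days 90 to 100 against 32 to 63.7 CPM (median 52.8) at days 70 to 80. The first 3 runs of days 90 to 100 lay within or below the range of days 70 to 80, and the level was high in cells 145 to 396 alone. Of the 16 acute phase genes, 15 had a log2 fold change above 0, where 55.5% of all tested genes did, with a median of 0.56, or 0.41 without TMM. LBP, which carries bacterial lipopolysaccharide, was chosen after its values were seen and had a log2 fold change of 0.93, with runs of 136 to 258 CPM at days 90 to 100 and 81.6 to 109 CPM at days 70 to 80.

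Among 15 tested hepatokines, 4 were called higher and 2 lower, with a median log2 fold change of 0.22. For comparison, 2.79% of all tested genes were called higher and 2.9% lower. Of the 4 higher, 1 (INHBA) reached 10 CPM only at days 90 to 100. Of the 2 lower, 1 reached it only at days 70 to 80, so these counts are no support on their own. INHBA, the beta A subunit of activins, stood at 20.5 CPM at days 90 to 100 and 3.62 CPM at days 70 to 80 (2.50). INHBE, the liver's beta E subunit, was at 132 CPM at days 90 to 100 and 32.2 CPM at days 70 to 80 (2.03). Both had overlapping runs. The cell median of INHBE at days 90 to 100 was 2.56 CPM in cells 1 to 96, 20.0 CPM in cells 97 to 144 and 231 CPM in cells 145 to 396. Within days 70 to 80 it was 42.7 CPM in cells 1 to 96 and 0 CPM in cells 97 to 253. ANGPTL8, which takes part in the inhibition of lipoprotein lipase, and FST, the activin-binding follistatin, were both chosen after their values were seen and had log2 fold changes of 1.02 and -1.81, both with overlapping runs. TSKU, a secreted proteoglycan, stood at 93.2 CPM at days 90 to 100 and 281 CPM at days 70 to 80 (-1.59). Runs spanned 61.8 to 126 CPM at days 90 to 100 against 184 to 486 CPM at days 70 to 80. In the growth hormone list 2 of 14 tested genes were called higher and 1 lower (SOCS2). Of the 2 higher, 1 reached 10 CPM only at days 90 to 100. IGFBP2, which binds insulin-like growth factors, stood at 496 CPM at days 90 to 100 and 221 CPM at days 70 to 80 (1.16). Its cell median at days 90 to 100 was 106 CPM in cells 1 to 96, 484 CPM in cells 97 to 144 and 663 CPM in cells 145 to 396. The cell medians of IGFBP2 at days 70 to 80 were 196 CPM in cells 1 to 96 and 269 CPM in cells 97 to 253. Its runs overlapped.

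GPX3, the plasma glutathione peroxidase, had the largest log2 fold change above 0 among the genes named by rule, at 173 CPM at days 90 to 100 and 6.58 CPM at days 70 to 80 (log2 fold change 4.72). Its level was carried by few runs, with 475 CPM in cells 97 to 144 and 44.6 CPM in cells 145 to 396, whose median cell had 0 CPM. Macrophage markers were also highest in cells 97 to 144. At days 90 to 100 the 10 markers summed to 25.3 CPM in cells 1 to 96 (2 markers at 0), 135 CPM in cells 97 to 144 (1 at 0) and 18.8 CPM in cells 145 to 396 (1 at 0). At days 70 to 80 they summed to 12.5 CPM in cells 1 to 96 and 31.4 CPM in cells 97 to 253 (1 at 0 in each). In cells 97 to 144 of days 90 to 100, the complement subunit C1QB had reads in 100% of cells, at 29.8 CPM. GPX3, CFD and CTSL were all highest in those cells too, and between the ranges of days 70 to 80 they moved in different directions. From cells 1 to 96 to cells 97 to 253 of days 70 to 80, GPX3 went from 8.18 to 4.8 CPM. CFD went from 2.74 to 16.1 CPM and CTSL from 2.91 to 12 CPM. At days 90 to 100, CTSL stood at 7.24 CPM in cells 1 to 96 and 13.4 CPM in cells 145 to 396. The part of the macrophage markers in these levels was not tested. FGFR2, a receptor of fibroblast growth factors, stood at 71.3 CPM at days 90 to 100 and 19.8 CPM at days 70 to 80 (1.85). Its level at days 90 to 100 was likewise higher in cells 1 to 96 (127 CPM) than in cells 145 to 396 (27.5 CPM), and its runs overlapped. PLIN2, the coat protein of lipid droplets, stood at 31.4 CPM at days 90 to 100 and 8.94 CPM at days 70 to 80 (1.81). G0S2, an inhibitor of triglyceride lipase, was at 45.2 CPM at days 90 to 100 and 19.1 CPM at days 70 to 80 (1.24). Both were high in cells 145 to 396 of days 90 to 100, with cell medians of 38.0 and 63.3 CPM, and PLIN2 had a cell median of 0 CPM in cells 1 to 96. The runs of both overlapped, with G0S2 at 13.1 to 82.0 CPM at days 90 to 100 against 2.19 to 33.4 CPM at days 70 to 80. SLC25A47, a mitochondrial carrier made mainly in liver, stood at 67.2 CPM at days 90 to 100 and 23.9 CPM at days 70 to 80 (1.49), with overlapping runs. SLC30A10, a manganese exporter, stood at 558 CPM at days 90 to 100 and 209 CPM at days 70 to 80 (1.42). The runs of this gene covered 355 to 786 CPM at days 90 to 100 against 161 to 245 CPM at days 70 to 80.

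Summed over each stage, genes of cholesterol synthesis were lower on balance at days 90 to 100. Of 22 tested members 4 were called lower and 0 higher, where 2.9% of all tested genes were called lower. In the list 18 members were below 0, and the median log2 fold change was -0.48. HMGCS1, which makes HMG-CoA, stood at 172 CPM at days 90 to 100 and 413 CPM at days 70 to 80 (-1.27). FDPS, the farnesyl diphosphate synthase, was at 29.8 CPM at days 90 to 100 and 63.9 CPM at days 70 to 80 (-1.10). HSD17B7, a sterol ketoreductase, was at 17.7 CPM at days 90 to 100 and 36.9 CPM at days 70 to 80 (-1.06), and SQLE, the squalene epoxidase, was at 81.8 CPM at days 90 to 100 and 168 CPM at days 70 to 80 (-1.04). The runs of these 4 overlapped, with HMGCS1 at 81.2 to 240 CPM at days 90 to 100 against 198 to 656 CPM at days 70 to 80. Within days 70 to 80, HMGCS1 stood at 221 CPM in cells 1 to 96 and 627 CPM in cells 97 to 253. In those ranges FDPS stood at 40.3 and 90.1 CPM, HSD17B7 at 30.3 and 44.2 CPM, and SQLE at 127 and 214 CPM. Cells 145 to 396 of days 90 to 100 had HMGCS1 at 213, FDPS at 26.6, HSD17B7 at 23.1 and SQLE at 118 CPM. MSMO1, a sterol methyl oxidase (673 CPM at days 90 to 100, 1259 CPM at days 70 to 80, log2 fold change -0.90), was under 2-fold but lower in every run. The same held for IDI1, an isomerase of isopentenyl units (274 CPM at days 90 to 100, 478 CPM at days 70 to 80, log2 fold change -0.80). Both were chosen after their values were seen. With each cell given equal weight, SQLE had a log2 fold change of -0.80 and HSD17B7 -0.81, under 2-fold. In fatty acid synthesis 1 of 16 tested genes was called lower and 0 higher. It was SCD, the stearoyl-CoA desaturase, at 12.9 CPM at days 90 to 100 and 30.3 CPM at days 70 to 80 (-1.23). Its cell median at days 70 to 80 was 5.78 CPM in cells 1 to 96 and 43.9 CPM in cells 97 to 253. Fatty acid oxidation had 0 of 23 tested members called in either direction, with a median of 0.09.

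**Figure D4:**
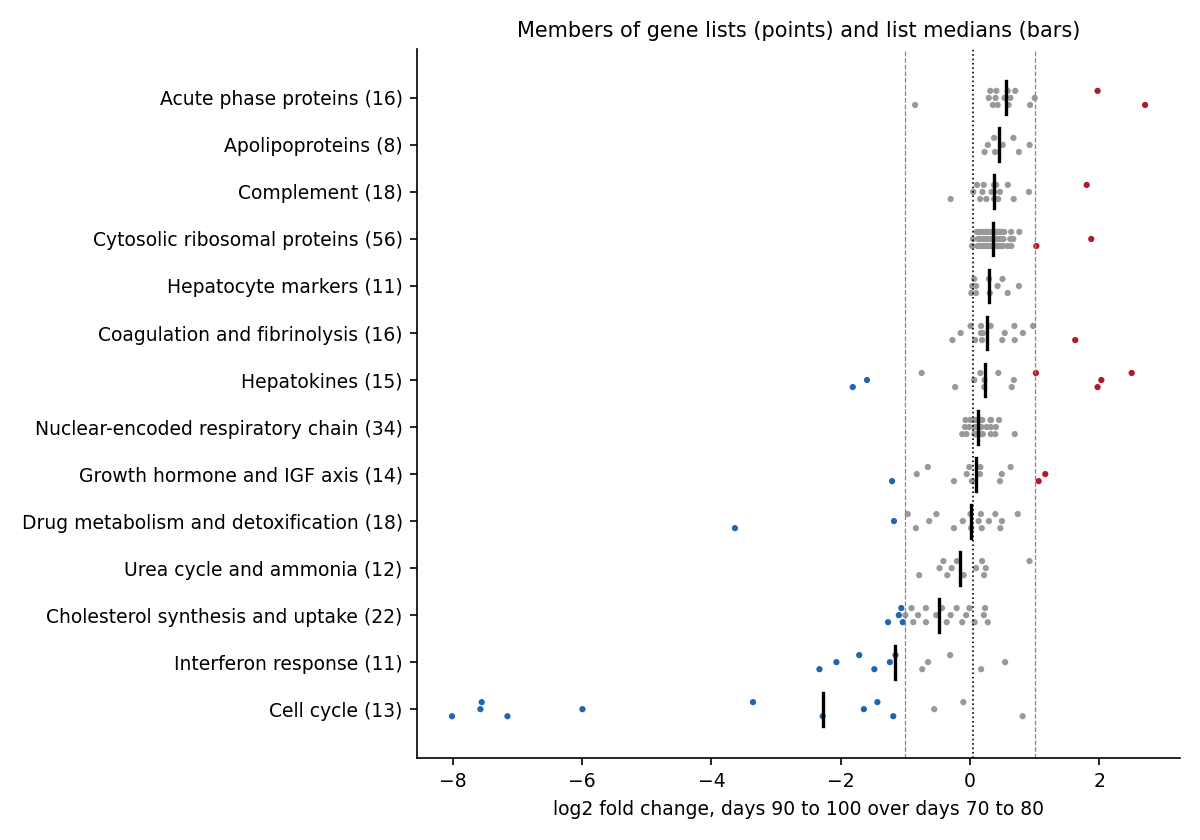
Log2 fold changes of days 90 to 100 over days 70 to 80 for the tested members of 14 gene lists, with the number of tested members in brackets, list medians as black bars, the median of all tested genes (0.05) as a dotted line and 2-fold as dashed lines. Red members were called higher and blue members lower. Cell cycle (median -2.28) and interferon (-1.15) members lie furthest to the left, and acute phase members (0.56) furthest to the right.

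Plasma protein lists shifted by less than 2-fold. For comparison, 55.5% of all tested genes were above 0 and 2.79% were called higher. All 8 tested apolipoproteins were above 0 (median log2 fold change 0.45, 0 called), as were 17 of 18 complement genes (median 0.37, 1 called higher) and 14 of 16 coagulation genes (median 0.26, 1 called higher, HRG). The complement member was CFD, the serine protease of the alternative pathway, at 31.5 CPM at days 90 to 100 and 9.04 CPM at days 70 to 80 (1.80). It reached 10 CPM at days 90 to 100 only. Of its reads at days 90 to 100, 29.2% were in 1 cell, and its log2 fold change was 0.22 without cells 97 to 144. Cytosolic ribosomal proteins were above 0 in 56 of 56 tested members with TMM, though not all without it, as the lowest stood at 0.03. Their median was 0.36, or 0.21 without TMM. In 16 of them every run lay above every run at days 70 to 80, against 2.87% of all tested genes. RPL36 was called higher, at 630 CPM at days 90 to 100 and 172 CPM at days 70 to 80 (1.87). Its runs were at 252 to 1084 CPM at days 90 to 100 against 107 to 228 CPM at days 70 to 80. RPS25 was called higher too, at 1089 CPM at days 90 to 100 and 535 CPM at days 70 to 80 (1.02), which was under 2-fold without TMM (0.88). Ribosomal protein genes have many processed copies, and whether these share reads was not tested.

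Of the 45 pathway lists, 19 had 0 members called, among them the urea cycle, glycolysis, the respiratory chain, the proteasome, unfolded protein response genes and transcription factors of hepatocyte identity. Over all tested genes 2.79% were called higher and 2.9% lower, so 0 called in a short list does not set it apart. The medians of 42 lists lay within 0.5 of 0. In the urea cycle list ARG1, the liver arginase, stood at 565 CPM at days 90 to 100 and 975 CPM at days 70 to 80 (log2 fold change -0.79). Runs spanned 501 to 672 CPM at days 90 to 100 against 754 to 1179 CPM at days 70 to 80. CPS1, the entry enzyme, stood at 2313 CPM at days 90 to 100 and 2169 CPM at days 70 to 80 (0.09). CSAD, which makes hypotaurine on the way to taurine, was called lower at 85.0 CPM at days 90 to 100 and 200 CPM at days 70 to 80 (-1.24). The runs of this gene covered 49.4 to 134 CPM at days 90 to 100 against 188 to 215 CPM at days 70 to 80. SDS, the serine dehydratase (10.7 CPM at days 90 to 100, 28.4 CPM at days 70 to 80, log2 fold change -1.40), was lower with overlapping runs. Its cell median in cells 1 to 96 of days 70 to 80 was 3 CPM. NR0B2, the nuclear receptor SHP that restrains bile acid synthesis, was called higher at 27.5 CPM at days 90 to 100 and 10.5 CPM at days 70 to 80 (1.38), with overlapping runs. CTSL, a lysosomal protease (1.58), and ID1, a target of BMP signalling (1.61), were called higher with overlapping runs, and CTSL was at 0.62 without cells 97 to 144.

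Some calls rested on the reads of few cells. CRYAB, a small heat shock protein, stood at 51.7 CPM at days 90 to 100 and 14.9 CPM at days 70 to 80 (log2 fold change 1.79). However, 79.2% of its reads at days 90 to 100 were in 1 cell, and without the top cell of each stage the value was -0.36. Among markers of other cells, JCHAIN of plasma cells stood at 26.5 CPM at days 90 to 100 and 62.7 CPM at days 70 to 80 (-1.24). In 1 cell lay 48.7% of its reads at days 90 to 100 and 68.7% at days 70 to 80. The macrophage receptor MARCO stood at 12.2 CPM at days 90 to 100 and 1.79 CPM at days 70 to 80 (2.77), with 44.6% of reads at days 90 to 100 and 20.2% at days 70 to 80 in 1 cell, and its log2 fold change was 0.40 without cells 97 to 144. The red cell globin HBB stood at 0.099 CPM at days 90 to 100 and 18.5 CPM at days 70 to 80 (-7.55), with 64.3% of the reads of days 70 to 80 in 1 cell. RGS5, of pericytes and stellate cells, stood at 19.5 CPM at days 90 to 100 and 7.75 CPM at days 70 to 80 (1.33), with overlapping runs.

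The stages on either side were used to place the changed genes in time. Of the 182 genes called higher at days 90 to 100, 108 (59.3%) had their highest level of the 6 gestation stages at days 90 to 100, and 72 (39.6%) had their lowest at days 70 to 80. Of the 189 called lower, 70 (37.0%) were lowest at days 90 to 100, and 136 (72.0%) were highest at days 70 to 80. The call itself favours such extremes, and over all 6524 tested genes days 90 to 100 were highest in 16.1% and lowest in 12.4%, and days 70 to 80 highest in 14.1% and lowest in 19.3%. Set between days 100 to 120 and days 50 to 70, libraries that the call did not use, 79 of the 182 higher genes (43.4%) were higher at days 100 to 120, against 53.4% of all tested genes. Of 188 lower genes with a value, 101 (53.7%) were lower at days 100 to 120, against 46.6% of all tested genes. By 2-fold, 40 of these 188 were higher at days 100 to 120 and 37 lower. Of the called genes whose runs were apart, 19 of 35 higher genes (54.3%) were higher at days 100 to 120, and 30 of 61 lower genes (49.2%) were lower.

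Single genes took different courses. CXCL12 stood at 19.9, 40.1, 17.1, 129, 51.0 and 13 CPM over the 6 stages from days 40 to 50 to days 140 to 150, so that it peaked at days 90 to 100. OVAR stood at 145, 76.7, 6.92, 134, 145 and 244 CPM over the same stages, low at days 70 to 80 alone. HAMP was also lowest at days 70 to 80, at 1150, 442, 176, 690, 995 and 739 CPM. ORM1 stood at 328, 4730, 50.1, 327, 142 and 7820 CPM, so its level at days 90 to 100 was within the range of earlier gestation. TFF2 stood at 20.1, 44.2, 131, 15.4, 31.8 and 35.7 CPM and CHP2 at 10.5, 1.39, 65.8, 5.50, 4.83 and 11.7 CPM, both highest at days 70 to 80. HMGCS1, in contrast, stood at 656, 586, 413, 172, 263 and 88.7 CPM, with its lowest level at days 140 to 150.

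**Figure D5:**
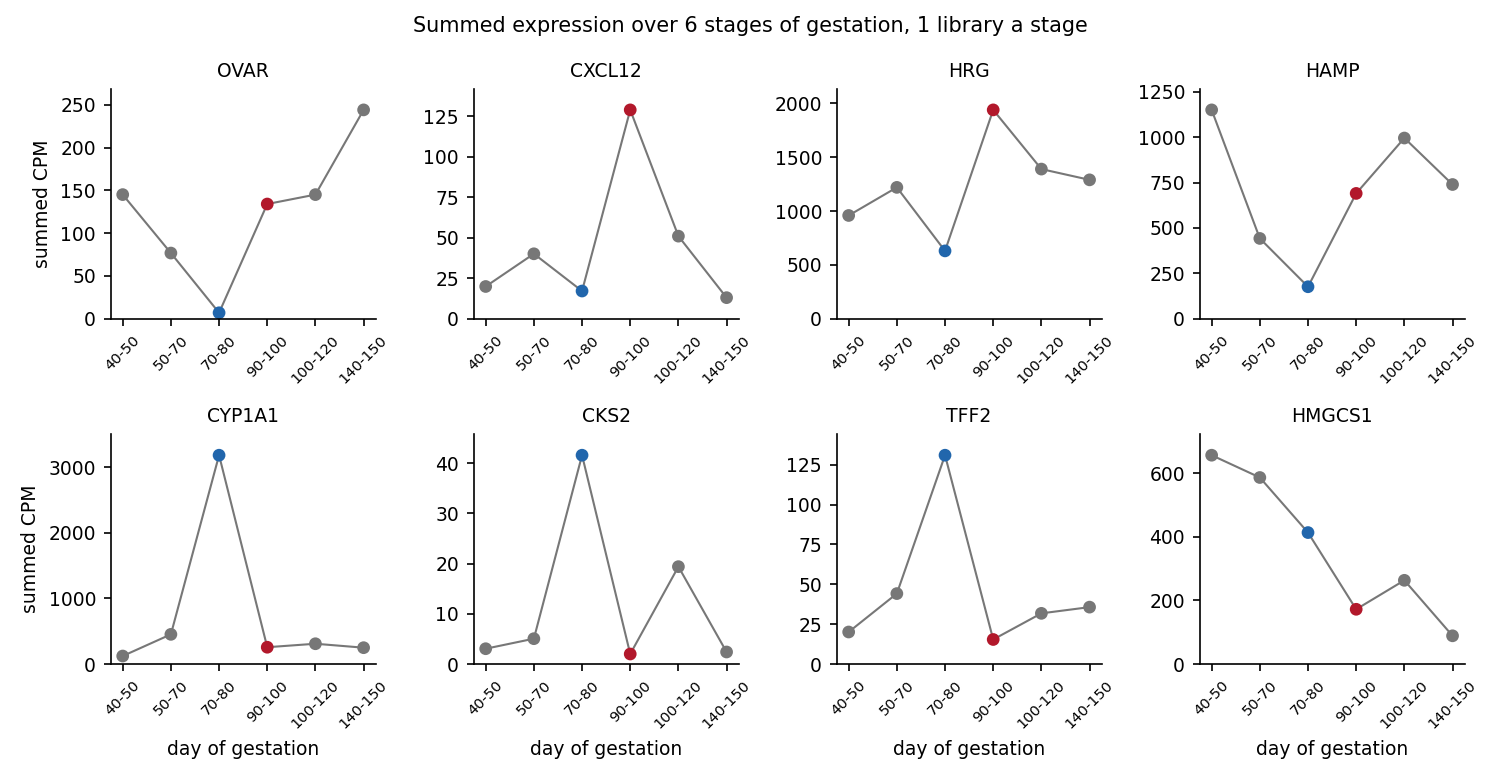
Summed CPM of 8 genes over the 6 stages of gestation on linear axes from 0, in order of day, with days 90 to 100 in red and days 70 to 80 in blue, and 1 library a stage. CXCL12 peaks at days 90 to 100 (129 CPM), CYP1A1, CKS2 and TFF2 peak at days 70 to 80 (3180, 41.6 and 131 CPM), OVAR is lowest at days 70 to 80 (6.92 CPM), and HMGCS1 is highest at days 40 to 50 (656 CPM) and lowest at days 140 to 150 (88.7 CPM).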

How the data were processed

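The deposited values were raw read counts for each gene in each cell, made by the authors from full-length libraries. The tools listed in the submitters' processing notes are featureCounts 2.0.1, HISAT2 2.1.0 and Trimmomatic 0.39, and the genome build, strand setting and any collapsing of molecular identifiers are not given in the sources used here. Of 28861 rows, 24 without a gene name (0.474% of reads) were dropped. A deposited table of normalized values held only NA and was not used. All 28837 symbols were in RefSeq's gene table of ARS-UI_Ramb_v3.0, used for names only. No mitochondrial rows were present, so RNA quality was not scored by them.

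Counts were summed per stage and scaled by TMM factors (edgeR 4.0.16, R 4.3.3) over 20263 genes and 9 stages. Called genes reached 10 CPM in either stage and differed 2-fold; Poisson and binomial intervals (95%) cover counting error only. Shares of cells come from cells cut at random to 155164 reads, a depth that the shallowest 10% of all cells did not reach. The 45 pathway lists, 8 marker lists and the comparison itself were chosen with earlier results of these data known. The text names the 15 genes of largest fold on each side, if so many qualified (not LOC symbols, at least 20 CPM, still 2-fold with equal weight per cell and without the top cell, reads in at least 25% of thinned cells), and per list up to 4 called members, or else the 2 most abundant. Some genes that the rule names are not reported here. Others are marked as chosen after their values were seen, as were the runs of 48 cells (a last run under 24 cells joined the one before) and the 17-gene panel. Alternatives were DESeq2 1.42.0 size factors, read totals without TMM, equal weight per cell, other minima and folds, and cells or runs left out. No cells were clustered and no doublets were called, as cells were picked singly. The calling step was tested on simulated data for this comparison with 28837 genes. It called 66 of 66 genes changed by a log2 of 1.5, 72 of 72 changed by 2, and 62 of 62 changed by 3. Of 6129 unchanged genes that were tested, it called 0. All the sizes tried lay past 2-fold, and recall nearer that limit was not tested. How the calls fare when animals or runs of a stage differ was not tested. Tables were handled in Python 3.11.15 with pandas 2.3.3, numpy 2.4.6, matplotlib 3.10.9 and SciPy 1.17.1.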

Additional observations from a re-analysis of the deposited data

How the results depend on the processing

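For genes higher at days 90 to 100, the count of 182 became 2315 with no minimum level, 53 with a minimum of 50 CPM, 591 with a fold of 1.5, 51 with a fold of 3 and 35 when the runs had to be apart as well. For genes lower at days 90 to 100, the count of 189 became 2998, 54, 464, 86 and 61 under the same settings. Counts stayed within 1.5 times under the other settings. These gave, higher and lower, 123 and 254 with library size only, 181 and 190 with DESeq2 size factors, 159 and 227 with equal weight per cell, 172 and 222 with thinned cells, 123 and 182 without the cell with the most reads of each gene, and 159 and 227 with equal weight per run, a setting added after the data were seen. Leaving out single runs of cells, also added later, gave 174 to 205 higher and 155 to 268 lower, with 268 lower without run 1 and 155 lower without run 3 of days 70 to 80.

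Of 68 named genes past 2-fold, 1 was under it with library size only, 0 with DESeq2 size factors, 4 with thinned cells and 0 to 9 without single runs. The 30 named for their large folds had to stay 2-fold with equal weight per cell and without the top cell. Of the other 38, 5 were under 2-fold with equal weight per cell and 3 without the top cell. The direction turned for CRYAB, at -0.36 without its top cell and -0.57 without run 3 of days 90 to 100, and for JCHAIN, at 1.64 without run 5 of days 70 to 80; each rests on the reads of few cells. No paired analysis was possible because each stage has 1 library. Values within a plate, animal or batch were not computed, since neither the cell names nor the cell sheet used here gives one. The thinned depth limits shares of cells: 0 of 355 allows up to 0.845% (3 counts), or 1.03% by the exact binomial bound.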

Other observations

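Loci that carry a LOC symbol made up 44 of the 182 genes called higher (24.2%) and 54 of the 189 called lower (28.6%), against 708 of all 6524 tested genes (10.9%). Runs did not overlap in 10 of the 44 and 14 of the 54, against 19.2% and 32.3% of all called genes on each side. LOC101111190, a long noncoding RNA in RefSeq, stood at 1930 CPM at days 90 to 100 and 602 CPM at days 70 to 80 (log2 fold change 1.68), with reads in every thinned cell of both stages. LOC121820230, also a long noncoding RNA, stood at 17.6 CPM at days 90 to 100 and 0.587 CPM at days 70 to 80 (4.90). Reads were found in 27.6% of thinned cells at days 90 to 100 and 2.35% at days 70 to 80. LOC121817120 (71.7 CPM at days 90 to 100, 242 CPM at days 70 to 80, log2 fold change -1.75) and LOC105601979 (22.8 CPM at days 90 to 100, 162 CPM at days 70 to 80, log2 fold change -2.83), both listed as protein-coding, were lower in every run. Whether any of these share reads with similar loci was not tested.

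Further named genes, chosen after their values were seen, had runs that did not overlap. STBD1, which anchors glycogen to membranes, stood at 391 CPM at days 90 to 100 and 143 CPM at days 70 to 80 (1.45). In cells 1 to 96 its cell median was 122 CPM at days 90 to 100 and 153 CPM at days 70 to 80. It was 252 CPM in cells 97 to 144 and 177 CPM in cells 145 to 396 of days 90 to 100. In cells 97 to 253 of days 70 to 80 it was 85.8 CPM. NNMT, the nicotinamide methyltransferase, stood at 113 CPM at days 90 to 100 and 48 CPM at days 70 to 80 (1.23). In cells 97 to 144 of days 90 to 100, NNMT had a cell median of 0 CPM and reads in 47.9% of cells. At days 70 to 80 its cell median was 42.8 CPM in cells 1 to 96 and 0 CPM in cells 97 to 253. Reads were in 82.3% and 43.9% of those cells. STMN1, which destabilises microtubules in dividing cells, stood at 0.81 CPM at days 90 to 100 and 41.4 CPM at days 70 to 80 (-5.68).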
